A study of Mus musculus with 20 samples.

Results

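The question was whether the effect of losing cystathionine γ-lyase (CSE, encoded by Cth) on liver gene expression depended on which amino acid was missing from the diet. It was put to 14 of the 20 liver RNA-seq libraries of the series, chosen by genotype and diet alone and not by any measured value. The 4 groups were Cse+/- mice on a diet without cysteine (no-Cys, n = 4), Cse-/- mice on no-Cys (n = 4), Cse+/- mice on a diet without tryptophan (no-Trp, n = 3) and Cse-/- mice on no-Trp (n = 3). For each gene, the knockout effect on no-Cys was the log2 difference of Cse-/- from Cse+/- livers on that diet. The knockout effect on no-Trp was defined in the same way, and the interaction was the first effect minus the second, so a positive value means that the knockout raised the gene more, or lowered it less, on no-Cys than on no-Trp. The mice were males of at least 9 weeks on a mixed 129/C57BL/6 background. All of them, controls included, were calorie-restricted: 3 days on a restricted control diet were followed by 2 days on the same restricted ration of the test diet. The diets were mixtures of free amino acids, with the missing one replaced by more of the others. The titles of the libraries call the comparison mice WT, whereas the study's list of mice gives them as heterozygous, and Cse+/- is the name used below. The knockout was constitutive, so every tissue lacked CSE. No Cse-/- group on the control diet was analysed here, and 2 Cse+/- livers on the control diet are quoted for reference only.

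CSE performs the last step of transsulfuration, the route by which the liver makes cysteine from methionine, so a Cse-/- mouse fed no cysteine has neither source, whereas on no-Trp it still eats cysteine. Lack of an amino acid is sensed by the kinase GCN2, which responds to uncharged tRNA and phosphorylates eIF2α, as kinases for other stresses do, and the translation of the transcription factor ATF4 that follows raises genes of amino acid synthesis, amino acid transport and tRNA charging, together called the integrated stress response. Cysteine is also the limiting part of glutathione, and oxidants or electrophiles that modify KEAP1 release NRF2, which raises glutathione transferases and other detoxifying enzymes. Sterol synthesis in the liver is run mainly by SREBP2, which is processed when membrane cholesterol is low, while the related SREBP1c drives fatty acid synthesis after feeding.

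The 14 libraries held 11785740 to 46024996 counts, and the no-Cys libraries, at 11785740 to 15436551, were shallower than most of the no-Trp libraries, which began at 14790326. Cth itself, the targeted gene, was at 332, 125, 132 and 121 CPM (counts scaled to a common library total of 1000000) in the Cse+/- no-Cys livers, 6.37, 7.04, 6.83 and 13.3 in Cse-/- no-Cys, 159.6, 155 and 88.4 in Cse+/- no-Trp and 13.9, 14.4 and 10.4 in Cse-/- no-Trp. It was low in every library labelled knockout and high in every other, and its interaction of -1.03 ± 0.45 (SE, log2) did not pass the test (adjusted p = 0.21, edgeR). One Cse-/- no-Cys library, av08, lay farther from the mean of the other knockouts on that diet than the remaining 3 did, with a root mean square log2 difference of 0.505 against 0.404 to 0.426. The same distance was 0.363 to 0.529 in the other 3 groups. Interaction counts of the gene lists that moved by 1.5 times or more without av08 are given beside the list or together with the fits that leave out 1 library. The livers expressed hepatocyte markers throughout, with albumin between 25507 and 87978 CPM. The summed level of 10 hepatocyte markers was 58053 to 88550 CPM in Cse-/- and 104356 to 129003 in Cse+/- livers on no-Cys. On no-Trp it was 88704 to 95564 in Cse-/- and 100026 to 109788 in Cse+/- livers, again without overlap. Of 5 blood cell markers tested, all 5 were lower in knockouts on no-Cys, with summed levels of 69.1 to 114 CPM against 201 to 406 in Cse+/- no-Cys, 211 to 258 in Cse+/- no-Trp and 119 to 184 in Cse-/- no-Trp. One of them, Alas2, the erythroid enzyme of haem synthesis, was called in the interaction (-1.12). Of 6 bile duct markers 2 were lower in knockouts on no-Cys, with summed levels of 16.8 to 29.4 CPM in Cse-/- and 46.9 to 58.8 in Cse+/- livers. On no-Trp 0 were called (4 lower at an unadjusted p under 0.05), with summed levels of 28.1 to 46.8 and 48.7 to 63.2 CPM. Of 10 immune cell markers 9 were below 0 on no-Cys (median -0.33), 1 of them called, and their mean log2 difference from the control livers was -0.22 to -0.17 in Cse-/- and 0.08 to 0.35 in Cse+/- livers on that diet, without overlap. Of these markers 0 were called in the interaction by edgeR or DESeq2 (1 lower at an unadjusted p under 0.05), and of 6 adipose markers 0 by edgeR, by DESeq2 or at an unadjusted p under 0.05, with leptin at 0 in all 14 libraries. The summed adipose markers were nevertheless at 87.3 CPM in av17, a Cse+/- no-Trp liver, and 69.6 in av14, a Cse-/- no-Trp liver, against 21.9 to 36.1 in the other 12. The part of these marker levels in the results that follow was not tested, and in whole liver fewer cells of a type and less RNA per cell cannot be told apart.

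Of 14759 genes tested, 643 (4.36%) had an interaction at an adjusted p under 0.05 in edgeR's quasi-likelihood test. It was higher than 0 in 246 genes (1.67%) and lower in 397 (2.69%), and its median over all genes tested was -0.02. The spread was estimated from all 20 libraries. A fit of the 4 groups alone called 375 genes, of which 364 were among the 643. More genes passed the test of the knockout effect on no-Cys than on no-Trp. On no-Cys the knockout raised 1717 genes (11.6%) and lowered 1798 (12.2%), and on no-Trp 206 (1.4%) were higher and 183 (1.24%) lower, which fell to 50 and 59 without av15, a Cse-/- no-Trp liver. Their precision was similar, with a median SE of 0.162 on no-Cys and 0.181 on no-Trp, against 0.243 for the interaction. Thus 545 of the 3515 genes with a called knockout effect on no-Cys (15.5%) also passed the test of the interaction, and for the rest a dependence on diet was not shown. Of the 389 genes called on no-Trp, 79 (20.3%) passed it.

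Each of the 643 genes was then put in a class by which of its knockout effects passed the same threshold. For 523 genes (81.3%), 204 with a higher and 319 with a lower interaction, the knockout effect was called on no-Cys only. In these the median size of the effect was 0.80 on no-Cys and 0.21 on no-Trp. For 57 genes (8.86%) it was called on no-Trp only, with a median size of 0.15 on no-Cys and 0.80 on no-Trp. In 16 genes (2.49%) the knockout moved expression in opposite directions on the 2 diets with both effects called, in 6 (0.933%) both were called in the same direction with a larger effect on no-Cys, and in 41 (6.38%) neither effect was called and only their difference was. The smaller classes depend on the threshold: with the effects judged at an unadjusted p of 0.05, 393 genes were called on no-Cys only, 62 on no-Trp only, 160 in opposite directions, 28 in the same direction and 0 in neither. Over all 643 genes the no-Cys effect divided by the interaction had a median of 76.3%, with quartiles of 56.9% and 99.9%, and the effects had opposite signs in 473. By this share, 407 genes lay nearer the no-Cys effect (over 2/3), 62 nearer the no-Trp effect (under 1/3) and 174 between, among them 122 of the 523 genes called on no-Cys only. These classes were cut from the values that made the interaction, so their sizes describe the genes and test nothing.

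**Figure D1:**
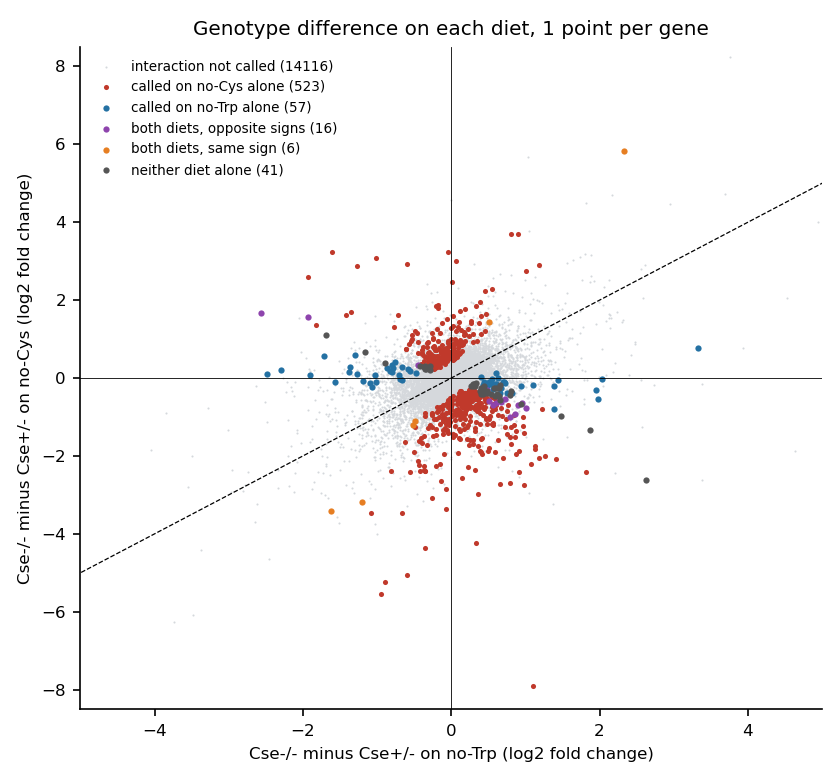
Knockout effect on no-Cys (y axis, log2 of Cse-/- over Cse+/-) against the knockout effect on no-Trp (x axis, log2) for the 14759 genes tested, each point a gene, with the 643 interaction genes coloured by class and 6 genes outside the plotted range. Most coloured points are the 523 genes called on no-Cys only, which spread up and down the y axis, and a smaller number lie along the x axis.

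The levels in the 4 groups showed which group a called gene set apart from the others. In 217 of the 643 genes (33.7%) all 4 Cse-/- no-Cys livers lay above or below every other library of the 4 groups, against 1190 of all genes tested (8.06%). In 140 (21.8%) it was the Cse+/- no-Cys livers that stood apart, 106 of them above the rest, against 402 of all genes (2.72%). The Cse+/- no-Trp livers stood apart in 51 (7.93%), against 663 of all genes (4.49%), and the Cse-/- no-Trp livers in 16 (2.49%), against 123 (0.833%). No group was separate in 254 genes (39.5%). Of the 57 genes whose knockout effect was called on no-Trp only, the Cse+/- no-Trp group was apart in 32 (56.1%) and the Cse-/- no-Trp group in 10 (17.5%). These genes were called from the same libraries, so shares above those of all genes describe the calls and test nothing. Over all genes tested, knockout and heterozygous livers did not overlap on no-Cys in 3423 genes (23.2%) and on no-Trp in 2891 (19.6%).

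Promoters of 4 genes are printed because these genes, all with a higher interaction, belong to the ATF4 and NRF2 responses described next. The sequences are from RefSeq (GRCm38.p6), 300 bases on the gene's own strand, from 250 bases before the start of transcription, and the capitals mark the motif. In the first pair it is the CARE, the element to which ATF4 binds with C/EBP proteins, searched as TGATGNAA on both strands. Gars, glycyl-tRNA synthetase, is at chr6:55037751-55038050 (plus strand), and Pck2, mitochondrial phosphoenolpyruvate carboxykinase, at chr14:55540016-55540315 (plus strand).
Gars: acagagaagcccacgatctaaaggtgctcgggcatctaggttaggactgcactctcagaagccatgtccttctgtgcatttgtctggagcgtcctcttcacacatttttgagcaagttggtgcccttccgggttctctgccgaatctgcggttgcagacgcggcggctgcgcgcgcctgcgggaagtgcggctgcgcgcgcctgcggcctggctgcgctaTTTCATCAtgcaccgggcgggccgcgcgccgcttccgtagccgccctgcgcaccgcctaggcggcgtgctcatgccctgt
Pck2: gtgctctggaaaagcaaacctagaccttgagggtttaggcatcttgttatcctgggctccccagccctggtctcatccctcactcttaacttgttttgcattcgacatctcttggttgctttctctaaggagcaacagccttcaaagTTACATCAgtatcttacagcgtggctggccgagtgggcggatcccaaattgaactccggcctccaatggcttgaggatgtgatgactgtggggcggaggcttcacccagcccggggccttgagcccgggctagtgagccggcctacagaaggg
In the second pair it is the core of the antioxidant response element bound by NRF2, searched as TGACNNNGC on both strands. Srxn1, sulfiredoxin, is at chr2:152105274-152105573 (plus strand), and Abcc4, an efflux pump for conjugated organic anions, at chr14:118706170-118706469 (minus strand). The marked stretch of Srxn1 begins 28 bases after the start of transcription, and that of Abcc4 25 bases before it. Another window of Abcc4, at chr14:118676882-118677181, also held 1 match and is not printed.
Srxn1: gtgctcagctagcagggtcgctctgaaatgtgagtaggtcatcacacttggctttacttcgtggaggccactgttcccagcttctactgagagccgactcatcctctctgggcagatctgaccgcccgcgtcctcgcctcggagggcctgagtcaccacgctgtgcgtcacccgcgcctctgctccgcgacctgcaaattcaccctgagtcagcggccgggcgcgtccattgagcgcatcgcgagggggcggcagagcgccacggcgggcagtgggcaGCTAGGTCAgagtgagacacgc
Abcc4: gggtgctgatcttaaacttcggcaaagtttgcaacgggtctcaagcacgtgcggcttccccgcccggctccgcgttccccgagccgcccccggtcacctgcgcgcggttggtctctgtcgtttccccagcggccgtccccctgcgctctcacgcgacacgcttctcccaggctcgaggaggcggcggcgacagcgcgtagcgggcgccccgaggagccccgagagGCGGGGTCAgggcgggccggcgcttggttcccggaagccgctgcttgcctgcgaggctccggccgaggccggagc
A window was held for 494 of the 643 interaction genes and for 10444 of all genes tested. The CARE letters were in 6 of 13 windows of the integrated stress response genes that the study names (46.2%) and in 5 of 12 of the tRNA synthetases (41.7%), against 2.86% of all genes tested. They were in 0 of 16 windows of a list of serine and one-carbon genes. In genes called on no-Cys only and higher they were in 6 of 157 windows (3.82%), close to the share of all genes tested. The antioxidant core was in 11 of 25 windows of a list of NRF2 and glutathione genes (44%), in 1 of 8 of the oxidative stress genes that the study names (12.5%), and in 16.8% of all genes tested. In the 157 windows of genes called on no-Cys only and higher it was in 29 (18.5%), close to that background. The letters of the sterol regulatory element, searched on both strands with 1 free base, were in 0 of 15 windows of sterol synthesis genes and in 0.239% of all genes tested. A match of letters is a description of the window and not evidence of binding.

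Many detoxifying enzymes are controlled by NRF2. Of the 8 oxidative stress response genes that the study names from these experiments, which are therefore no independent evidence of direction, all 8 were higher in knockouts on no-Cys, 0 were called on no-Trp by edgeR (2 higher at an unadjusted p under 0.05, 1 called higher by DESeq2), and 7 had a higher interaction. The median was 1.65 for the interaction, 2.04 on no-Cys and 0.30 on no-Trp, against medians of -0.02, -0.01 and 0.00 over all genes. Nqo1 (ENSMUSG00000003849, chr8:107388225-107403206), a quinone reductase, was at 8.11, 3.32, 5.91 and 5.59 CPM in Cse+/- no-Cys, 21.1, 32.9, 32.9 and 24.3 in Cse-/- no-Cys, 4.62, 4.53 and 4.81 in Cse+/- no-Trp and 5.74, 6.3 and 8.37 in Cse-/- no-Trp livers. All 4 knockouts on no-Cys were above all other libraries, and the interaction was 1.74 ± 0.38 (SE, adjusted p = 0.0133). Srxn1, which restores oxidised peroxiredoxins and whose promoter is printed above, was at 84.8, 81.5, 107 and 91 CPM in Cse-/- no-Cys and no higher than 30.4 elsewhere (21.5 to 30.4 in Cse+/- no-Cys, 16.9 to 24.1 and 21.9 to 25.5 on no-Trp), with an interaction of 1.58 ± 0.20. The glutathione transferases Gstm1 (1.97), Gstm3 (2.44), Gstm2 (1.22), Gstm4 (1.20) and Gsta2 (1.72), which join glutathione to electrophiles, were all called. Gsta1 was not, with 1.38 ± 0.79 (adjusted p = 0.351), a value above those of Gstm2 and Gstm4 with a larger SE, and its effects were 3.11 on no-Cys and 1.74 on no-Trp. These genes lie in clusters of close copies, and 87.9% of the 61-base words of Gsta1, 43.5% of those of Gsta2, 25.7% of Gstm3 and 15.2% of Gstm1 also occur in another gene, so reads between them may be misassigned. Without av02 the interaction was called in 5 of the 8, and Gsta2 and Gstm4 passed in only 6 and 7 of the 14 fits that left out 1 library.

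A wider list of 30 genes of NRF2 and glutathione metabolism was mixed. In this list 11 had a higher and 1 a lower interaction, 15 were higher and 3 lower in knockouts on no-Cys, and the median interaction was 0.21. On no-Trp 0 were called by edgeR, while an unadjusted p under 0.05 was met by 5 in the higher and 2 in the lower direction, and DESeq2 called 2 higher and 1 lower. Cbr3 (ENSMUSG00000022947, chr16:93683215-93690990), a carbonyl reductase, had the largest value. It was at 0.36, 0.776, 0.855 and 0.849 CPM in Cse+/- no-Cys, 3.72, 5.72, 9.62 and 2.95 in Cse-/- no-Cys, 0.924, 0.748 and 1.26 in Cse+/- no-Trp and 0.691, 0.623 and 0.58 in Cse-/- no-Trp livers. The 4 knockouts on no-Cys stood above all others, and the interaction was 3.52 ± 0.60 (SE, adjusted p = 0.00278). The related Cbr1 (1.41), the efflux pumps Abcc4 (1.74) and Abcc3 (1.03), epoxide hydrolase Ephx1 (1.29), aldehyde oxidase Aox1 (1.10), haem oxygenase Hmox1 (1.09), glutathione reductase Gsr (1.01) and glutathione synthetase Gss (0.67) followed in the same direction. The transcript of NRF2 itself, Nfe2l2, went the other way at -0.68 ± 0.18 (adjusted p = 0.0369). It was lower in knockouts on no-Cys (53.5 to 66 CPM, against 65.8 to 86.8) and its call was lost in 8 of the 14 fits without 1 library. Thioredoxin reductase Txnrd1 (0.54) and the lipid peroxidase Gpx4 (0.58, with 32.5% of its words shared) were small changes that passed in 3 and 4 of those fits. Without av20 the list gave 6 higher interactions in place of 11. Outside the list, the cytochrome P450 Cyp2a5, the mouse coumarin hydroxylase, reached 3033, 4916, 5058 and 4375 CPM in Cse-/- no-Cys against 807 to 1051 in Cse+/- no-Cys and 1023 to 1162 and 1191 to 1769.7 on no-Trp, with an interaction of 1.79 ± 0.29. Of its words 29.4% also occur in Cyp2a4 and another gene, and reads there may be misassigned. Cyp2a5 was the 1 call among 23 xenobiotic P450 genes and their receptors, whose median interaction was -0.08. Of that list 5 were higher and 3 lower in knockouts on no-Cys.

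Genes of the integrated stress response were mostly higher in knockouts on no-Cys. The 14 genes that the study names for it, again chosen on these experiments, gave 11 higher in knockouts on no-Cys, 3 higher on no-Trp and 6 with a higher interaction, with medians of 1.82, 0.70 and 1.37. Psat1 (ENSMUSG00000024640, chr19:15904678-15947337), phosphoserine aminotransferase of serine synthesis, had the highest interaction of the list. It was at 0.991, 0.988, 0.933 and 1.13 CPM in Cse+/- no-Cys, 64.5, 66.4, 66.7 and 33.8 in Cse-/- no-Cys, 2.35, 2.63 and 2.76 in Cse+/- no-Trp and 8.24, 23.3 and 8.37 in Cse-/- no-Trp livers. Knockouts were above heterozygotes on both diets without overlap, by 5.83 ± 0.40 on no-Cys and 2.33 ± 0.38 on no-Trp (SE, log2), and the interaction of 3.50 ± 0.57 (adjusted p = 0.00221) puts it among the 6 genes whose effects shared a direction. The same held for Asns, asparagine synthetase, at 4.46 and 2.96, but its interaction of 1.51 ± 0.75 was not called (adjusted p = 0.278). Trib3, a pseudokinase induced by ATF4, was the third gene called on no-Trp, and its effect there, 2.12, was the larger in size beside 1.63 on no-Cys. It was at 13.4, 23.6, 12.3 and 18.7 CPM in Cse+/- no-Cys, 55.2, 48.5, 68 and 39.7 in Cse-/- no-Cys, 6.96, 7.34 and 8.59 in Cse+/- no-Trp and 39.7, 33.1 and 27.1 in Cse-/- no-Trp livers, without overlap of the genotypes on either diet, and its interaction of -0.49 ± 0.31 was not called (adjusted p = 0.406). Fgf21, a hormone that the liver secretes under nutrient stress, had the interaction 2.68 ± 1.05 (adjusted p = 0.159), with 35.2, 34.2, 44.1 and 2.95 CPM in Cse-/- no-Cys and 8.16, 4.05 and 6.59 in Cse-/- no-Trp, so that the knockouts of the 2 diets overlapped through av08. Mthfd2 (2.91 ± 0.59), a mitochondrial folate enzyme, the transcription factors Atf5 (1.57) and Atf6 (0.83) and Slc3a2 (1.24), the heavy chain of amino acid transporters, were called on no-Cys and in the interaction but not on no-Trp. Mthfd2 was at 15.7, 16.6, 21.5 and 8.04 CPM in Cse-/- no-Cys and at most 3.81 in any other library of the 4 groups. Chac1, which degrades glutathione, had an interaction of 3.03 ± 0.69 (adjusted p = 0.0164) and was at 3.6, 5.36, 4.59 and 2.48 CPM in Cse+/- no-Cys, 11.4, 10.7, 24.5 and 4.8 in Cse-/- no-Cys, 14.2, 13 and 10.6 in Cse+/- no-Trp and 6.3, 5.11 and 3.48 in Cse-/- no-Trp livers. The genotypes overlapped on no-Cys through av08, and on no-Trp the heterozygotes were above the knockouts. The count of 6 was 6 to 7 when any 1 library was left out.

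Pck2 and Aldh1l2, which are not among those 14, also had large interactions. Pck2 (ENSMUSG00000040618, chr14:55540266-55551242) was at 5.32, 6.28, 4.9 and 4.53 CPM in Cse+/- no-Cys, 53.7, 71.4, 61.3 and 13.6 in Cse-/- no-Cys, 6.89, 8.68 and 7.66 in Cse+/- no-Trp and 5.44, 11 and 6.55 in Cse-/- no-Trp livers, an interaction of 3.29 ± 0.52 (SE, adjusted p = 0.0018). The 4 knockouts on no-Cys were above all others but spread from 13.6 to 71.4. Aldh1l2 (ENSMUSG00000020256, chr10:83487450-83534140), mitochondrial 10-formyltetrahydrofolate dehydrogenase, was at 3.01, 4.99, 4.84 and 0.812 CPM in Cse-/- no-Cys, against 0.311 to 0.637 in Cse+/- no-Cys, 0.981 to 1.43 in Cse+/- no-Trp and 0.388 to 0.623 in Cse-/- no-Trp, with an interaction of 4.16 ± 0.70. The effects were 2.88 on no-Cys and -1.27 on no-Trp, the latter not called. In the list of 21 serine and one-carbon genes, 4 had a higher interaction (Aldh1l2, Mthfd2, Psat1 and Phgdh). Phgdh, the first enzyme of serine synthesis, rested on 42 counts in knockouts and 4 in heterozygotes on no-Cys, a ratio of 9.11 with an exact 95% interval of 3.30 to 35.0 that covers counting error only, and 42.8% of its words occur in other genes.

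Of 20 cytosolic aminoacyl-tRNA synthetases, which charge tRNAs with amino acids, 17 were higher in knockouts on no-Cys, 1 on no-Trp, and 6 had a higher interaction. The medians were 0.56, 0.14 and 0.48. Gars, whose promoter is printed above, was at 45.8, 47.6, 48.1 and 43.6 CPM in Cse+/- no-Cys, 138, 135, 132 and 96 in Cse-/- no-Cys, 43.5, 37.2 and 33.4 in Cse+/- no-Trp and 47.4, 55.5 and 59.9 in Cse-/- no-Trp livers. Like Psat1 it rose with the knockout on both diets, by 1.44 and 0.52, and more on no-Cys (interaction 0.92 ± 0.17, adjusted p = 0.00448). Sars (0.84), Eprs (0.77), Vars (0.74), Rars (0.52) and Hars (0.48), for serine, glutamate with proline, valine, arginine and histidine, were called as well. The count rested on which livers entered: it was 4 without av14, 11 without av16, and 9 without av08.

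Genes of endoplasmic reticulum stress, among them the chaperones that fold secreted proteins, were higher in knockouts on no-Cys in 10 of 23. On no-Trp 0 were called by edgeR or DESeq2 (3 lower at an unadjusted p under 0.05), and 5 had a higher interaction, with medians of 0.45, -0.15 and 0.48. Hyou1, a chaperone of the HSP70 family, was at 239, 295, 269.8 and 317 CPM in Cse-/- no-Cys and 103 to 165 in Cse+/- no-Cys, but at 355, 211 and 189 in Cse+/- no-Trp and 185, 94 and 236 in Cse-/- no-Trp livers. Knockouts were therefore above heterozygotes on no-Cys, whereas the groups overlapped on no-Trp, and the interaction was 1.51 ± 0.36 (adjusted p = 0.0218). Creld2 (1.83), Manf (1.35), Hspa5 (1.13), which encodes BiP, and Selenos (0.73) were also called. All 5 calls in this list were lost without av17, the Cse+/- no-Trp liver with the highest adipose marker level, where the count was 0 by edgeR. The part of that level in these calls was not tested.

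The largest positive interaction by the naming rule was that of Cdkn1a (ENSMUSG00000023067, chr17:29090976-29100727), the cyclin-dependent kinase inhibitor p21. It was at 0.721, 1.13, 1.79 and 4.53 CPM in Cse+/- no-Cys, 12.3, 9.39, 22.5 and 5.76 in Cse-/- no-Cys, 4.26, 8.9 and 8.41 in Cse+/- no-Trp and 1.17, 2.93 and 1.82 in Cse-/- no-Trp livers. On no-Cys all knockouts were above all heterozygotes and on no-Trp all were below. The effects were 2.58, which was called, and -1.93, which was not (adjusted p = 0.0646), and together they gave 4.51 ± 0.74 (SE, adjusted p = 0.00227). The 2 livers on the control diet were at 6.6 and 22.9 CPM. Cdkn1a was the only one of 15 tested genes of growth arrest and the p53 response that was called in the interaction. Got1, cytosolic aspartate aminotransferase, which also transaminates cysteine, was at 901 to 952 CPM in Cse-/- no-Cys and 260.2 to 431 in Cse+/- no-Cys, with overlapping groups on no-Trp (580.2 to 761 and 424 to 877) and an interaction of 1.54 ± 0.29.

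**Figure D2:**
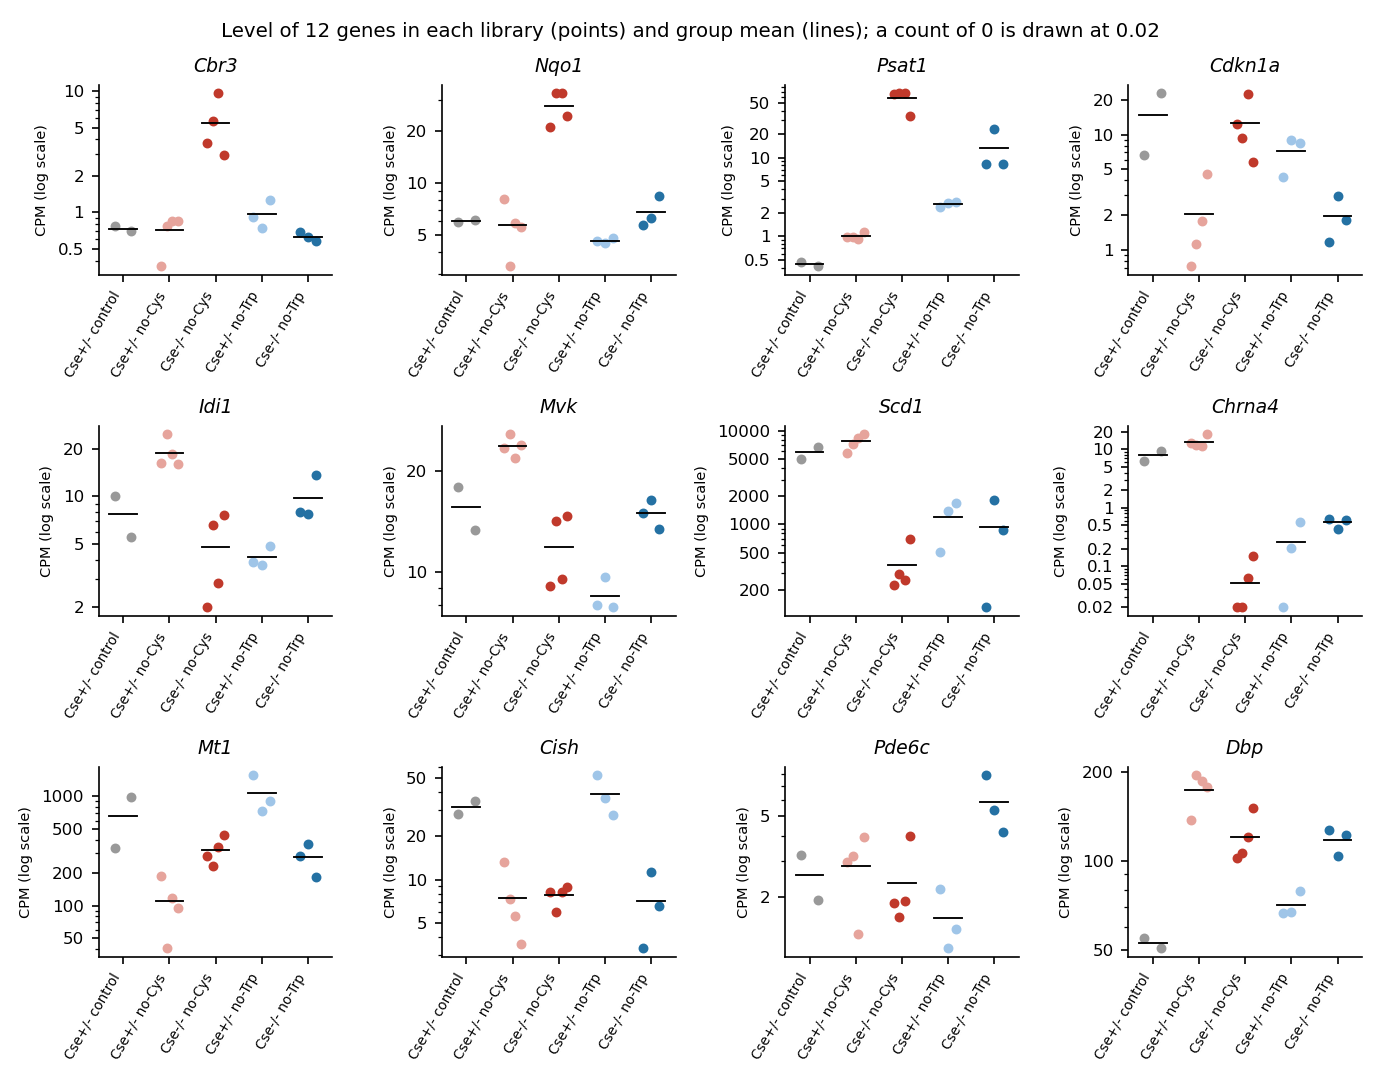
CPM (log axis) of 12 genes in each library of the 4 groups and in the 2 Cse+/- control livers, each point a library, with a count of 0 drawn at 0.02. The 4 Cse-/- no-Cys livers are above the rest for Cbr3, Nqo1 and Psat1, the 4 Cse+/- no-Cys livers are above the other 3 groups for Idi1, Mvk, Scd1 and Chrna4, and the 3 Cse+/- no-Trp livers are above the other 3 groups, though not above the control livers, for Mt1 and Cish.

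In sterol synthesis, the enzymes from acetoacetyl-CoA to cholesterol, all 20 genes had a lower interaction, with a median of -1.79. On no-Cys 18 of them were lower in knockouts (median -1.31), and on no-Trp 4 were higher and 0 lower (median 0.62). At an unadjusted p under 0.05, 11 of the 20 were higher on no-Trp and 0 lower. The level of the list, as the mean log2 difference from the control livers, was 0.44 to 0.68 in Cse+/- no-Cys livers, -1.23 to -0.36 in Cse-/- no-Cys, -0.67 to -0.33 in Cse+/- no-Trp and -0.19 to 0.33 in Cse-/- no-Trp. On no-Cys the heterozygotes were thus above the controls and the knockouts below. On no-Trp the heterozygotes were below the controls, while the knockouts spread around the controls and were all above the heterozygotes. In 10 of the 20 genes the Cse+/- no-Cys livers were above all other libraries, and in 4 the Cse-/- no-Cys livers were below all. Without av16 the interaction was called in 17 of the 20, the lowest count when any 1 library was left out, and without av08 in 20.

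**Figure D3:**
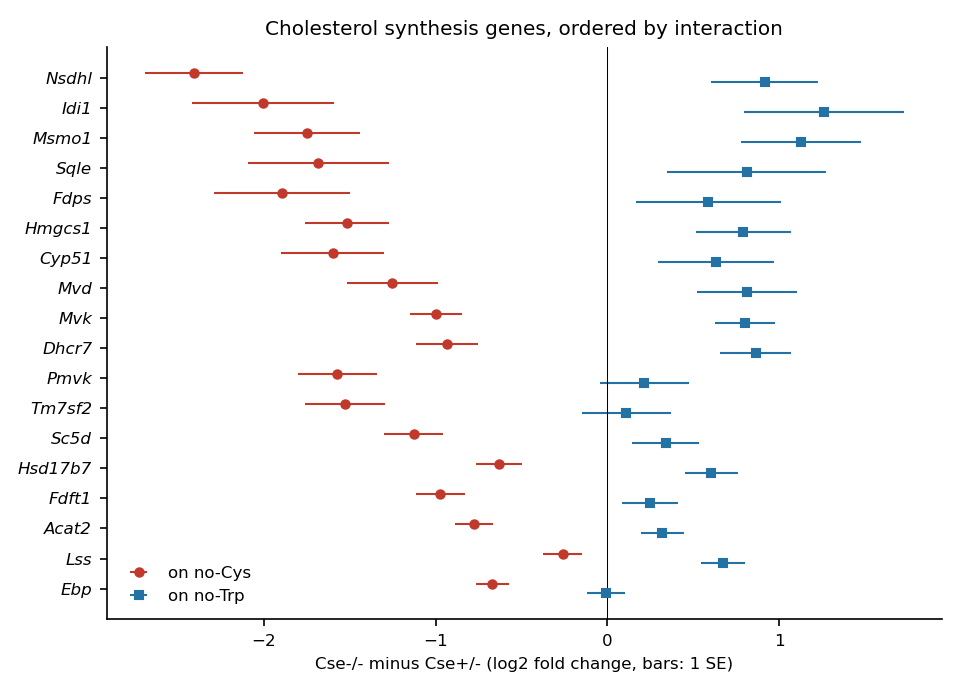
Knockout effect (log2 of Cse-/- over Cse+/-, with SE bars) of 18 sterol synthesis genes (y axis, ordered by interaction) on no-Cys and on no-Trp. On no-Cys all 18 values are below 0, and on no-Trp 17 are above 0, the exception being Ebp at -0.01.

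The lowest interactions in the pathway were those of Nsdhl and Idi1. Nsdhl, a sterol dehydrogenase, was at 57.5, 53.6, 48.1 and 54.2 CPM in Cse+/- no-Cys, 5.67, 11.3, 8.25 and 15.3 in Cse-/- no-Cys, 12, 13.8 and 16.7 in Cse+/- no-Trp and 24.3, 20.2 and 35.8 in Cse-/- no-Trp livers, an interaction of -3.32 ± 0.42 (SE, adjusted p = 0.000511). Idi1 (ENSMUSG00000058258, chr13:8885501-8892451), isopentenyl diphosphate isomerase, was at 16.2, 24.7, 18.5 and 16.1 CPM, 2.01, 6.6, 2.85 and 7.67, 3.84, 3.67 and 4.86 and 8.03, 7.73 and 13.7 in the same order, an interaction of -3.27 ± 0.62 (adjusted p = 0.00562). For both the Cse+/- no-Cys livers were separate from, and above, all the rest. Msmo1 (-2.87), Sqle (-2.49), Fdps (-2.48), Hmgcs1 (-2.31), Cyp51 (-2.23), Mvd (-2.06), Pmvk (-1.79), Tm7sf2 (-1.64), Sc5d (-1.47), Fdft1 (-1.22), Acat2 (-1.10) and Ebp (-0.66) were called on no-Cys and not on no-Trp. Mvk, mevalonate kinase, moved in opposite directions with both effects called: it was at 23.4, 25.8, 21.9 and 23.9 CPM in Cse+/- no-Cys and 9.15, 14.2, 9.56 and 14.8 in Cse-/- no-Cys, but at 8.03, 9.67 and 7.89 in Cse+/- no-Trp and 15, 16.4 and 13.5 in Cse-/- no-Trp livers. Its effects were -0.9998 and 0.80, and Dhcr7 (-0.93 and 0.86) and Hsd17b7 (-0.63 and 0.60) did the same. Lss, lanosterol synthase, was the one member called on no-Trp only, at 21.1 to 23.5 CPM in Cse+/- and 32.8 to 40.2 in Cse-/- livers. Of the 61-base words of Acat2, Fdps and Idi1, 36.8%, 24.8% and 17.3% occur in other genes, and reads there may be misassigned, and 18.3% of the exons of Fdft1 overlap a gene on the other strand.

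Of 12 fatty acid synthesis genes 6 were lower in knockouts on no-Cys, 0 were called on no-Trp by edgeR (2 higher at an unadjusted p under 0.05, 1 called higher by DESeq2) and 5 had a lower interaction, with medians of -0.60, 0.33 and -0.95. Scd1 (ENSMUSG00000037071, chr19:44394455-44407879), stearoyl-CoA desaturase, was at 5822, 7191, 8395 and 9145 CPM in Cse+/- no-Cys, 228, 295, 258 and 694 in Cse-/- no-Cys, 508, 1404 and 1679.7 in Cse+/- no-Trp and 132, 1809.7 and 872 in Cse-/- no-Trp livers. The Cse+/- no-Cys livers were above the other 3 groups and overlapped the control livers, at 4995 and 6749.6, and the interaction was -4.02 ± 0.93 (SE, adjusted p = 0.0186), lost without av17 or av15. Elovl5 (-1.61), Fasn (-1.51), Acss2 (-1.28) and Fads1 (-1.19), for chain elongation, synthesis, acetate activation and desaturation, passed in all 14 fits. Fasn was at 157 to 196 CPM in Cse+/- no-Cys, 65.2 to 107 in Cse-/- no-Cys, 71.3 to 92.5 in Cse+/- no-Trp and 70.7 to 144 in Cse-/- no-Trp.

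Among the other genes called on no-Cys only and lower, Chrna4 (ENSMUSG00000027577, chr2:181018380-181043546), a subunit of the neuronal nicotinic acetylcholine receptor, had the largest value. It was at 13.1, 11.6, 11.4 and 18.2 CPM in Cse+/- no-Cys, 0, 0, 0.0621 and 0.148 in Cse-/- no-Cys, 0, 0.204 and 0.561 in Cse+/- no-Trp and 0.647, 0.436 and 0.622 in Cse-/- no-Trp livers, and at 6.42 and 9.33 in the control livers. Among these libraries it exceeded 1 CPM only in Cse+/- mice on no-Cys or control food. The knockouts on no-Cys held 3 counts in all and the heterozygotes 713, a depth-scaled ratio of 274 with an exact 95% interval of 93.4 to 1332 for counting error only, and the fitted interaction of -9.02 depends on those few counts and is no measure of size. Selenbp2, a selenium-binding protein, was at 55, 493, 332 and 115 CPM in Cse+/- no-Cys, 7.14, 2.79, 2.23 and 9.37 in Cse-/- no-Cys, 389, 164 and 37.1 in Cse+/- no-Trp and 165, 49.9 and 89.9 in Cse-/- no-Trp livers. Its knockouts on no-Cys were below all others while each other group spread several-fold, the interaction of -4.59 ± 1.18 passed in 6 of 14 fits without 1 library, and 36.3% of its words occur in Selenbp1. Serpinb1a, an inhibitor of neutrophil proteases, had -4.23 ± 1.11 and passed in 4, with a single knockout library, av08, at 2.21 CPM beside 0.062 to 0.118. Without av08 its interaction was -6.91 ± 1.12, so its size depends on that library.

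Of 10 hepatocyte markers 2 had a lower interaction, 0 a higher one, and 3 values were above 0. Alb, albumin, at -0.997 ± 0.26, was at 25507 to 49494 CPM in Cse-/- no-Cys livers against 64175 to 87978 in Cse+/- no-Cys, and its call held in 6 of the 14 fits. Otc, ornithine transcarbamylase of the urea cycle, had -1.003 ± 0.23, in a list of 16 genes of the urea cycle and nitrogen of which 6 were higher and 2 lower in knockouts on no-Cys. Khk, the fructose kinase, had -0.98 ± 0.23, as 1 of 2 lower and 0 higher calls among 18 genes of gluconeogenesis and glycolysis. Ghr, the growth hormone receptor, had -1.19 ± 0.22. Ghr was at 178 to 289 CPM in Cse-/- no-Cys and 408 to 606, 408 to 443 and 383 to 419 in the other 3 groups, so only 1 group was low. Of 25 genes expressed more in male than female liver, 17 were lower in knockouts on no-Cys, 2 on no-Trp and 3 had a lower interaction (1 without av02 and 5 without av08), with medians of -1.24, -0.66 and -0.69. Hsd3b5, a steroid dehydrogenase of male liver, was at 66.9, 360.2, 280.0 and 222 CPM in Cse+/- no-Cys, 23.6, 14.5, 15 and 30.5 in Cse-/- no-Cys, 139.5, 159 and 182 in Cse+/- no-Trp and 143, 40 and 121 in Cse-/- no-Trp livers, with -2.81 ± 0.64 (adjusted p = 0.0168) and 16.4% of its words shared with close copies. The blood markers given above moved with these genes on no-Cys. The mean log2 difference of the 10 hepatocyte markers from the control livers was -0.80 to -0.54 in Cse-/- and -0.50 to -0.25 in Cse+/- livers on that diet. The part of either in these results was not tested.

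Of 18 genes of the circadian clock and its output, 10 were lower in knockouts on no-Cys, 8 were not called there, 2 were higher on no-Trp and 7 had a lower interaction, with medians of -0.38, 0.21 and -0.54. Dbp, a transcription factor whose level swings with the time of day, was at 137, 194, 186 and 178 CPM in Cse+/- no-Cys, 102, 107, 121 and 151 in Cse-/- no-Cys, 66.6, 67.2 and 79 in Cse+/- no-Trp and 127, 104 and 122 in Cse-/- no-Trp livers. Both effects were called, -0.53 and 0.73, and the interaction was -1.26 ± 0.19 (adjusted p = 0.00125). On no-Cys the groups overlapped and on no-Trp they did not, and the control livers, at 55 and 50.8 CPM, were below all 4 groups. Per3 (-1.30), Hlf (-1.06), Bhlhe40 (-1.04) and Per2 (-0.83) passed in all 14 fits, Tef (-0.53) in 8 and Nr1d2 (-0.55) in 1. The highest value of the list was that of Arntl, which encodes BMAL1, at 1.57 ± 0.66, and it was not called (adjusted p = 0.192). Whether the hour of sampling differed between groups was not tested, and 18% of the exons of Dbp overlap a gene on the other strand, from which this library kit cannot separate it.

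Of the 16 genes with opposite effects, the metallothioneins had the largest interactions. Mt1 (ENSMUSG00000031765, chr8:94179082-94180327), which binds zinc and copper and is induced by glucocorticoids and metals, was at 185, 40.8, 116 and 95.4 CPM in Cse+/- no-Cys, 281, 229, 346 and 441 in Cse-/- no-Cys, 1562, 730.2 and 896 in Cse+/- no-Trp and 287, 364 and 183 in Cse-/- no-Trp livers. Knockouts were above heterozygotes on no-Cys and below them on no-Trp, without overlap in either, and the Cse+/- no-Trp livers stood above the other 3 groups, with the control livers at 335 and 992 CPM. The effects were 1.57 (adjusted p = 0.0104) and -1.94 (adjusted p = 0.0391), for an interaction of 3.50 ± 0.64 (adjusted p = 0.00445). Mt2 gave 1.66 and -2.56 and an interaction of 4.22 ± 0.82, although 73.5% of its exons overlap a gene on the opposite strand. The third gene of this kind was Ube2g2, a ubiquitin-conjugating enzyme, with a smaller interaction (0.78 ± 0.15). Slc22a4, a carnitine and ergothioneine transporter, reversed in the other sense, at -0.70 on no-Cys and 0.90 on no-Trp.

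Genes called on no-Trp only mostly had the Cse+/- no-Trp livers apart from the other 3 groups, by the counts given above. Cish (ENSMUSG00000032578, chr9:107296026-107302784), a feedback inhibitor of growth hormone signalling, was at 13.2, 7.34, 5.6 and 3.61 CPM in Cse+/- no-Cys, 8.2, 6.01, 8.25 and 8.85 in Cse-/- no-Cys, 52.5, 36.7 and 27.7 in Cse+/- no-Trp and 3.37, 11.3 and 6.55 in Cse-/- no-Trp livers. The 3 Cse+/- no-Trp livers were above the other 3 groups and overlapped the control livers, at 28.5 and 34.9, so it was the other groups that were below the control level. The interaction of 2.57 ± 0.50 (SE, adjusted p = 0.00618) came from an effect of -2.48 on no-Trp and 0.09 on no-Cys. Slc37a1, a sugar phosphate exchanger of the endoplasmic reticulum, at 2.50 ± 0.53, Arid5a, which stabilises inflammatory mRNAs, at 1.99 ± 0.50, likewise had the Cse+/- no-Trp livers above the other 3 groups. Hspb1, a small heat shock protein, at 1.88 ± 0.42, was at 18.5 to 43.9 CPM there, which overlapped the Cse-/- no-Cys livers at 9.59 to 20.7. Arid5a passed in 9 of the 14 fits, and 47.8% of the words of Hspb1 also occur in a pseudogene. In the axis of growth hormone and IGF, of 18 genes, 2 had a higher interaction, Cish and its relative Socs3 (1.28), and 2 a lower one, Bcl6 (-3.21) and Ghr.

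Genes that were lower in the interaction through no-Trp were led by Esrrg, an orphan nuclear receptor, and Pde6c, a phosphodiesterase of cone photoreceptors. Esrrg was at 0.853, 0.838 and 1.68 CPM in Cse+/- no-Trp against 2.98, 7.48 and 2.94 in Cse-/- no-Trp, and at 3.73 to 6.42 and 2.27 to 6.71 on no-Cys, with -2.51 ± 0.68 that held in 6 of 14 fits. Pde6c was the other way about in its outlying group: it was at 7.9, 5.36 and 4.19 CPM in Cse-/- no-Trp, at 2.2, 1.13 and 1.4 in Cse+/- no-Trp, and at 1.32 to 3.96 and 1.61 to 3.98 on no-Cys, with -2.25 ± 0.50 (adjusted p = 0.0151). Car3, carbonic anhydrase 3, was at 1496 to 2021 CPM in Cse-/- and 631 to 686 in Cse+/- livers on no-Trp, and overlapped between genotypes on no-Cys (-2.19 ± 0.45). Depp1, a FOXO target of fasted liver, at -1.61 ± 0.44, passed in 4 fits only. The glucose transporter Slc2a2 was lowest in Cse+/- no-Trp livers, at 261 to 348 CPM against 394 to 546 in all others of the 4 groups (-0.66 ± 0.18).

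Of the 643 interaction genes, 6 were called in the same direction on both diets. Beside Psat1 and Gars these included Fabp5, a fatty acid binding protein, at 12.7, 17.4, 33.3 and 17.8 CPM in Cse+/- no-Cys, 3.07, 2.05, 2.23 and 1.55 in Cse-/- no-Cys, 14, 7.82 and 9.2 in Cse+/- no-Trp and 4.57, 3.68 and 4.93 in Cse-/- no-Trp livers. It was lower in knockouts on both diets, with effects of -3.17 and -1.20, and more so on no-Cys (-1.97 ± 0.42). Tbx3os1, an antisense transcript beside Tbx3, had -1.79 ± 0.42, and Perp, a junction protein, -0.62 ± 0.17 in 4 of 14 fits. Of the genes called in the interaction and in neither effect, Bcl6, a repressor of female liver genes, had -3.21 ± 0.78 with 106, 28.9 and 80.3 CPM in Cse-/- no-Trp beside 24.4, 20 and 14.8 in Cse+/- no-Trp. The same class included Nos1ap (2.80, 6 fits), Creld2 and Socs3, described above, Pank1 and Mup16 (-5.25, 6 fits). Mup16 shares 89.4% of its words with other major urinary protein genes and reached 177 CPM in a single knockout liver on no-Trp, so its value is uncertain.

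Several lists had few or no called interactions. Of 24 interferon-stimulated genes, 19 were lower in knockouts on no-Cys (median -0.91) and 1 on no-Trp (median -0.15), yet 0 had a called interaction in edgeR or in DESeq2, with a median of -0.69 and an unadjusted p under 0.05 in 9, all of them lower. The immune cell markers given above moved with them on no-Cys, and their part in this was not tested. Of 74 subunits of the respiratory chain, 16 were lower in knockouts on no-Cys and 0 were called in the interaction in edgeR (6 lower at an unadjusted p under 0.05, 1 called lower in DESeq2). Of 30 genes of fatty acid oxidation and PPARα 0 were called in edgeR or in DESeq2 (5 lower at an unadjusted p under 0.05, 2 called lower by edgeR without av01), and of 23 acute phase genes 0 in edgeR (3 higher at an unadjusted p under 0.05, 1 called higher in DESeq2, 3 called higher by edgeR without av01). Of 31 proteasome subunits, 12 were higher in knockouts on no-Cys and 1, Psmc4 (0.44), was called in the interaction by edgeR (0 without av01 and 4 without av08), against 4 by DESeq2 and 6 at an unadjusted p under 0.05, all higher. A missed threshold does not show that these effects were equal on the 2 diets.

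**Figure D4:**
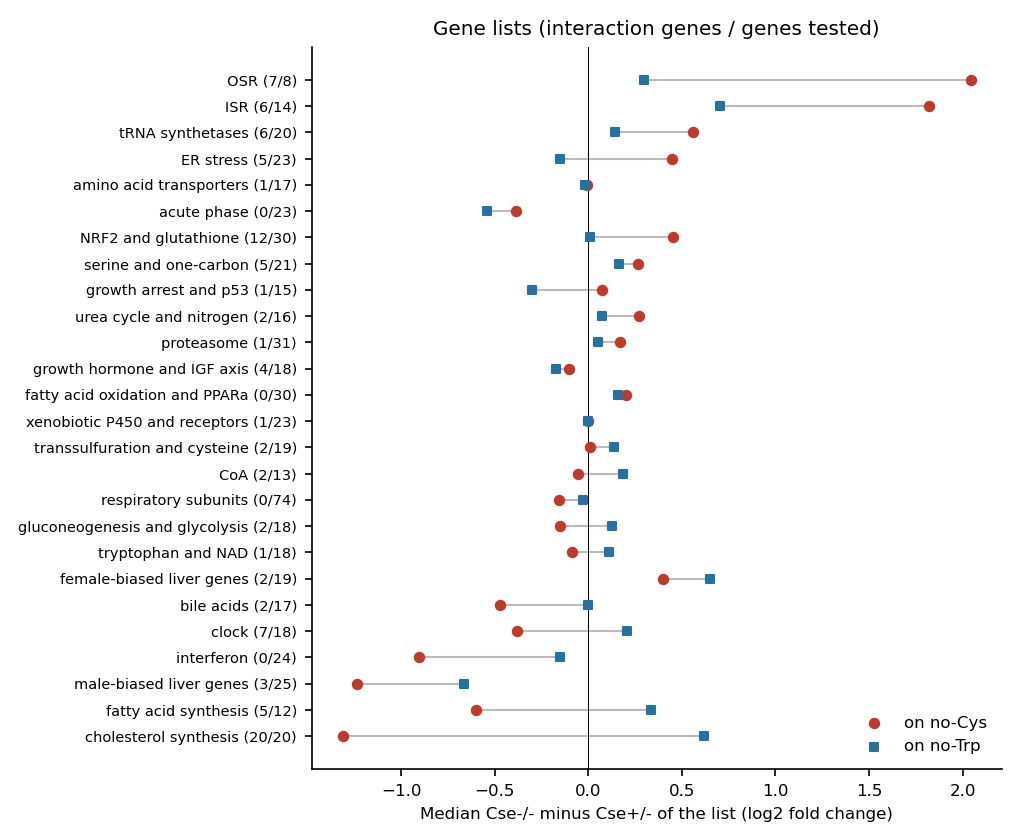
Median knockout effect (x axis, log2 of Cse-/- over Cse+/-) on no-Cys (circles) and no-Trp (squares) over the tested members of each gene list (y axis, with interaction genes over genes tested; OSR and ISR are the oxidative and integrated stress genes the study names), in order of median interaction. Sterol synthesis, at the bottom, has medians of -1.31 and 0.62, and the oxidative stress genes, at the top, 2.04 and 0.30.

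How far a call depended on 1 liver was read from 14 fits that left out 1 library each. Of 113 named genes called in the interaction, 67 were called in all 14. Otc lost its call without av14 alone, and Hmox1, Khk and Hyou1 without av17 alone. Leaving out any of 2 or 3 libraries ended the call of Abcc4 (av14, av20), Rars (av14, av17), Fdps (av16, av17), Aox1 (av15, av19, av20) and Tbx3os1 (av07, av14, av17). Leaving out any of 5 ended that of Arid5a (av02, av04, av07, av14, av17), Sqle (av02, av07, av16, av17, av19), Oat (av02, av06, av14, av16, av19) and Alas2 (av02, av06, av07, av16, av20). Calls that were lost in 6 to 13 of the 14 fits are counted here rather than by library: Cbr1, Creld2, Bcl6, Tef and Slc10a1 were lost in 6, Gstm4 and Hspa5 in 7, Selenbp2, Gsta2, Esrrg, Nfe2l2, Manf, Alb, Nos1ap and Mup16 in 8, Selenos in 9, Serpinb1a, Depp1, Perp, Gpx4, Phgdh (in 2 of them because it did not pass the filter on low counts), Slc2a2, Socs3 and Psmc4 in 10, Txnrd1, Hars, Pank1, Haao, Abcd2 and Amacr in 11 and Nr1d2 in 13. Counts in the lists fell in some of these fits. Without av02 there were 0 lower interactions in the NRF2 and glutathione list in place of 1, 1 in place of 2 in the female-biased list, 1 higher in place of 2 in the growth hormone axis, and 0 lower in place of 1 among blood cell markers. The list of the urea cycle and nitrogen had 0 higher in place of 1 without av02 and 0 lower in place of 1 without av14, the growth hormone axis had 1 lower in place of 2 without av04, and the hepatocyte markers had 0 lower in place of 2 without av03. Of the interferon-stimulated genes 1 was lower without av15, and of the clock genes 1 was higher without av20. Without av08 the lists gained calls for the most part. The tRNA synthetases with a higher interaction were then 9 instead of 6, and lower calls rose from 1 to 2 in the NRF2 and glutathione list, from 0 to 3 in xenobiotic P450 genes and their receptors, from 2 to 3 in female-biased genes and in the growth hormone axis, from 0 to 2 in respiratory subunits, and from 0 to 1 in amino acid transporters and in bile duct markers. Higher calls went from 1 to 2 in the xenobiotic and growth arrest lists and from 2 to 1 in the growth hormone axis. Genes of transsulfuration and cysteine use went from 1 higher and 1 lower to 2 and 2. On no-Cys the acute phase genes lower in knockouts were 10 instead of 2, and the genes of fatty acid oxidation and PPARα that were higher were 8 instead of 3. The count over all genes ran from 134 higher without av02 to 476 without av08, and from 201 lower without av07 to 674 without av08, so both counts were largest without the Cse-/- no-Cys liver that stood apart. Of the 643 genes, 631 were among the 1150 called without av08, all in the same direction, and 346 were called without av07.

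**Figure D5:**
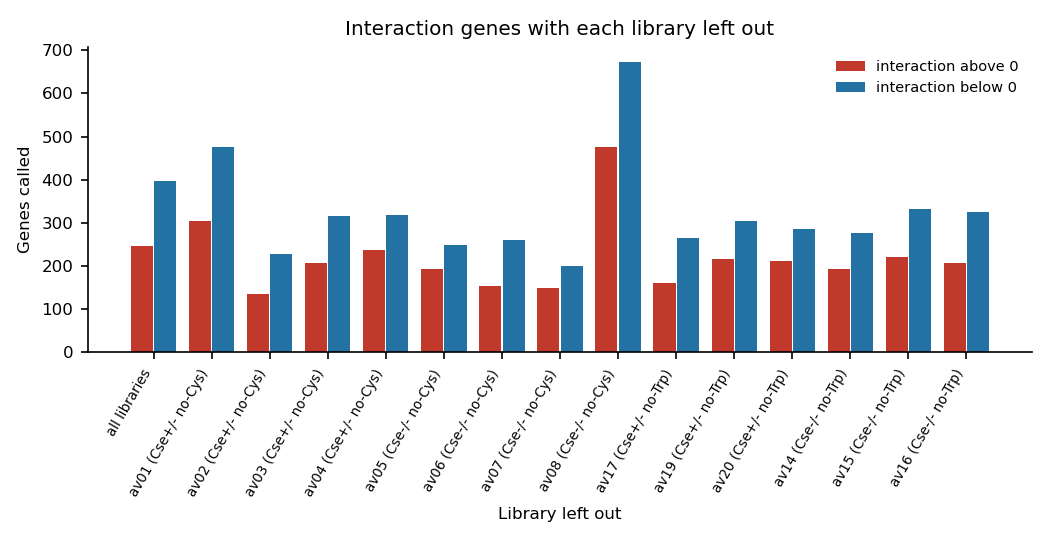
Number of genes called in the interaction (y axis, higher and lower) in the fit to all libraries and in each fit that left out 1 library (x axis). The counts are largest without av08, at 476 higher and 674 lower.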

How the data were processed

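Poly(A) RNA of mouse liver was made into libraries with a kit that does not mark strand. HISAT2 2.1.0 (alignment to GRCm38) and HTSeq 0.11.0 (counting per gene, annotation release not given in the sources) were used by the authors. The values are those raw counts as deposited, with no normalization, for 46078 gene identifiers, of which 45229 were given a symbol from GENCODE vM21. Columns carry mouse numbers without replicate numbers and were put in groups through the list of mice that the study gives, and 1 of 21 columns of counts, which that list does not place in a group of this series, was not used.

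Counts of all 20 libraries (6 groups, including Cse-/- mice on no-Trp given buthionine sulfoximine) were fitted with edgeR 4.0.16 in R 4.3.3. Genes were kept with filterByExpr (minimum count 10, minimum total 15), scaled by TMM and tested with the quasi-likelihood test, and p-values were adjusted by Benjamini-Hochberg over all genes tested. Genes with an adjusted p under 0.05 were called. The SE of a log2 value was its size divided by the square root of F. CPM are counts scaled to a TMM-adjusted library total of 1000000. The samples are separate mice, so p-values measure the spread between mice, and the no-Cys and no-Trp effects share no sample. Exact intervals use a 95% level. The scripts were tested on simulated data.

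Genes were named by rule: the 4 largest interactions per class and direction (2 where neither effect was called) with a mean CPM of at least 1 over the 14 libraries and genotypes that did not overlap on a diet whose effect was called (not asked of the last class), then the extremes of each list and its called members, predicted genes apart. Members and lists were chosen with earlier results of these data known. Asns, Fgf21, Gsta1 and the printed promoters were chosen after their values were seen. Alternatives were DESeq2 1.42.0, RLE and upper-quartile scaling, no filter, a filter at a mean CPM of 1, a fit to the 4 groups alone, counts thinned to 11785740 per library, an adjusted p of 0.01, the classes at an unadjusted p of 0.05 and leaving out libraries. Some genes are not reported here.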

Additional observations from a re-analysis of the deposited data

Results flagged for a closer look

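The knockout effects on the 2 diets differed in 643 genes by the test of the interaction itself. Among the named genes whose effects were called in opposite directions, the interaction was 4.22 for Mt2, 3.50 for Mt1, 0.78 for Ube2g2, -1.80 for Mvk, -1.80 for Dhcr7, -1.60 for Slc22a4 and -1.26 for Dbp.

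A library far from the others of its group of 4 was seen 9 times in 66 groups of 33 genes. Chance gives about 1 in 20 for independent groups, which these are not, since all genes were read in the same libraries. In 6 of the 9 it was av08 among the Cse-/- no-Cys livers. There Cth was at 13.3 CPM (others 6.37 to 7.04), Gars at 96.0 (132 to 138), Pde6c at 3.98 (1.61 to 1.92), Psat1 at 33.8 (64.5 to 66.7), Scd1 at 694 (228 to 295) and Serpinb1a at 2.21 (0.062 to 0.118). In the same group Bcl6 was at 30.5 CPM in av07 (11.2 to 11.95 in the others). Among the Cse+/- no-Cys livers, av01 had Cbr3 at 0.36 CPM (0.776 to 0.855) and Cth at 332 (121 to 132).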

How the results depend on the processing

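Direction was kept throughout: for the interactions of the named genes no alternative gave a value of opposite sign, and 436 values, of 69 results, no longer passed the threshold while 3, of 2 results, newly did. Counts were less stable. With DESeq2 the interaction was higher in 467 genes, the no-Trp effect higher in 424 and lower in 299, and the classes held 808 (no-Cys), 115 (no-Trp), 34 (opposed), 16 (shared) and 85 (neither); 631 of the 643 genes were shared. Without the filter the no-Trp effect was lower in 276, and classes held 96 (no-Trp), 37 (opposed), 15 (shared) and 77 (neither). Fitted to the 4 groups alone, the interaction was higher in 145 and lower in 230.0 genes, the no-Trp effect higher in 75 and lower in 92, and the classes held 319, 20, 9, 2 and 25. With thinned counts the no-Trp effect was higher in 129 and 3 genes were shared. At an adjusted p of 0.01 the interaction was higher in 60 and lower in 100, the no-Cys effect higher in 892 and lower in 968, the no-Trp effect higher in 31 and lower in 41, and the classes held 142, 7, 1, 1 and 9. With the effects judged at an unadjusted p of 0.05 there were 160 opposed, 28 shared and 0 in the class neither.

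Leaving out 1 library, the interaction was higher in 134 (without av02) to 476 (av08) and lower in 201 (av07) to 674 (av08). The no-Cys effect was higher in 1291 (av02) to 1775 (av20) and lower in 1259 (av07) to 1881 (av15), and the no-Trp effect higher in 50 (av15) to 259 (av08) and lower in 59 (av15) to 215 (av08). Classes ran from 288 (av07) to 917 (av08), 18 (av15) to 96 (av08), 5 (av19) to 28 (av01), 1 (av15) to 16 (av08) and 15 (av02) to 94 (av08). With a no-Cys library of each genotype left out together, the ranges were 68 to 536 and 106 to 771 (interaction), 1013 to 1643 and 954 to 1771 (no-Cys), 127 to 319 and 132 to 266 (no-Trp), and 143 to 993, 18 to 122, 7 to 45, 1 to 21 and 3 to 118 (classes). The cause was not tested. No paired analysis was possible because the columns carry no replicate numbers. With counts thinned to the shallowest library 236 genes were higher and 352 lower in the interaction. A gene outside the 643 is not shown to respond alike on both diets.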

Other observations

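Cysteine is a substrate of coenzyme A synthesis, and of 13 genes of that route 2 had a lower interaction and 0 a higher one, both pantothenate kinases, which catalyse its first step. Pank3 was at -0.87 ± 0.19 (SE, log2) and Pank1 at -0.70 ± 0.20, the latter called in 3 of the 14 fits without 1 library (1 lower in the route without av02). Of 19 genes of transsulfuration and cysteine use, 1 was higher (Got1) and 1 lower, Papss2 (-1.02 ± 0.20), which makes the donor for sulfation, at 123 to 156 CPM in Cse-/- no-Cys and 199 to 228 in Cse+/- no-Cys livers. Of 17 amino acid transporters only Slc3a2 was called. Over all genes tested 1.67% had a higher and 2.69% a lower interaction, so a single call in a list of this size says little about the list.

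Of 17 bile acid genes 0 were higher and 2 lower, the uptake transporter Slc10a1 (-0.83 ± 0.21) and Amacr (-0.65 ± 0.18), and 0 were lower without av02 and 6 without av08. Of 18 genes of tryptophan and NAD metabolism, which use the amino acid missing from the other diet, 1 was lower, Haao (-0.68 ± 0.19; 0 lower without av02, and 1 higher and 3 lower without av08), and its difference lay on no-Cys (-0.73) and not on no-Trp (-0.05). Over all genes tested 1.67% were higher and 2.69% lower in the interaction, so 1 or 2 calls in the lists of this paragraph say little about each list. Of 19 female-biased liver genes 2 were lower, Abcd2 (-2.04 ± 0.56), a peroxisomal transporter, and Rtn4 (-0.84 ± 0.19). Lyve1, a marker of sinusoidal endothelium, had a higher interaction (1.30 ± 0.27), the 1 call by edgeR among 10 stellate and endothelial markers, of which DESeq2 called 1 higher and 2 lower. Of 16 genes of the urea cycle and nitrogen, Oat was higher (0.75 ± 0.19) and Otc lower.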
